A study of Bos taurus with 36 samples.

Results

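Ubiquitin conjugation and deubiquitination in the liver were followed through 82 probe sets of 58 genes, out of 24128 probe sets on a bovine array. Members were taken by symbol: the activating enzymes whose name starts with UBA and a digit (6 probe sets, 5 genes), the conjugating enzymes UBE2 (33 probe sets, 26 genes) and the ubiquitin-specific proteases USP followed by a digit (43 probe sets, 27 genes). The rule reads symbols only, though the families were picked with earlier results of these data known. For 20 of the genes there was more than 1 probe set, so members of the same gene are not independent.

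Liver biopsies came from 8 healthy primiparous Holstein-Friesian cows, 9 to 12 weeks after calving. Each cow received 200 micrograms of E. coli lipopolysaccharide (LPS, the endotoxin of the bacterial outer wall) into the right front gland of the udder and saline into the left front gland at time 0. The 36 arrays cover -22 hours, 9 hours and 48 hours in all 8 cows, and 3, 6 and 12 hours in 4 of them (cows 1, 3, 7 and 8). No array from cows without LPS was analysed here, so within these arrays LPS, time and repeated biopsy cannot be told apart. The study's methods cite separate saline-infused cows, in which biopsy by itself is stated to have changed neither clinical measures nor the genes selected for that check.

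Attaching ubiquitin to a protein takes an activating enzyme (E1), a conjugating enzyme (E2) and a ligase (E3) that picks the target. The E2 often sets the kind of ubiquitin chain, and with it whether the target goes to the proteasome or takes part in signalling. Related E1 and E2 enzymes attach the small modifiers SUMO, NEDD8, UFM1 and ISG15. Deubiquitinases, of which the USP family is the largest, take ubiquitin off again. In liver these systems are known for work in protein degradation, in quality control at the endoplasmic reticulum, and in signalling downstream of endotoxin and cytokine receptors.

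Values are GCRMA log2 intensities, and every change below is a difference in log2 level against -22 hours with its standard error (SE) from limma. A probe set was called higher or lower at an adjusted p (Benjamini-Hochberg over all 24128) below 0.05. Levels are compared only within a probe set. Array medians lay between 4.15 and 4.37. On a scale where the mean array at -22 hours is 0 and at 9 hours 100, the -22 hour arrays ran from -3.08 to 10.3 (cow 1 highest) and the 48 hour arrays from 1.10 to 24.8 (cow 2 highest). The labelled tissue matched its markers: all 8 hepatocyte markers were past the filter on dim probe sets (log2 of 5 or more on at least 4 arrays), with list means of 13.9 to 14.2 at -22 hours. No batch is given in the labels.

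Most members moved between 6 and 12 hours after LPS. At 3 hours 6 members were higher and 1 was lower, beside 3.5% and 2.4% of all probe sets. At 6 hours 31 were higher and 22 lower (background 23.3% and 22.0%). At 9 hours 38 were higher and 21 lower, against 32.0% and 22.6% of all probe sets. At 12 hours 31 were higher and 11 lower (background 22.2% and 18.9%). By 48 hours 12 were higher and 15 lower, where 17.9% and 12.2% of all probe sets were called. The 48 hour direction depended on scaling. An alternative, called median centring below, subtracted from every array the middle value of bright probe sets only (mean log2 of 5 or more). With median centring 28 members were higher and 8 lower at 48 hours. Of all 24128 probe sets 11002 were then higher and 2000 lower, in place of 4329 and 2941, so the swing was array-wide. The median change over all probe sets was then 0.17 in place of 0.03.

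The families differed in their counts. Of the 33 UBE2 probe sets, the calls higher numbered 17, 23 and 19 at 6, 9 and 12 hours and the calls lower 6, 7 and 5, with median changes of 0.50, 0.60 and 0.64. Over all probe sets the medians at those hours were 0.03, 0.03 and 0.01. The share of UBE2 probe sets called higher at 9 hours was 69.7%, beside 32.0% of all probe sets and 40.0% of the 12479 past the filter on dim probe sets. Of the 43 USP probe sets, 13, 13 and 10 were higher and 12, 11 and 6 were lower at 6, 9 and 12 hours, with medians of 0.01, 0.03 and 0.02. Of the 6 UBA probe sets, 1 was higher and 4 were lower at 6 hours, while at 9 hours 2 were higher and 3 lower. These counts describe the families and were not tested against other probe sets. The USP shares at 9 hours, 30.2% for higher calls and 25.6% for lower calls, lay near the 32.0% and 22.6% of the whole array. Dim probe sets were spread unevenly: 30 of 33 UBE2 probe sets passed the filter, but only 31 of 43 for USP. The part of this imbalance in the difference between the families was not tested.

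**Figure D1:**
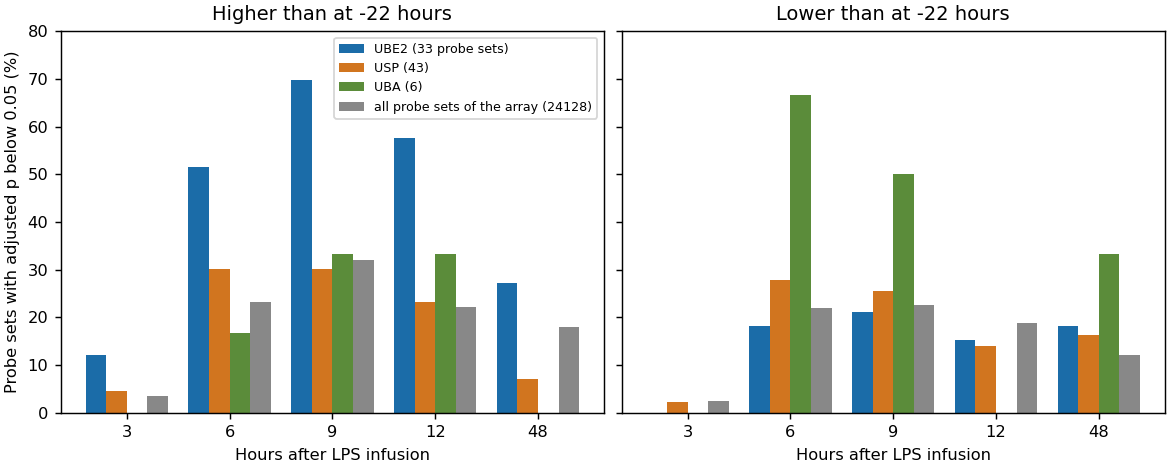
Share of probe sets (vertical axis, percent) called higher (left) or lower (right) than at -22 hours, at each hour after LPS (horizontal axis), for UBE2, USP, UBA and all probe sets of the array. UBE2 bars for higher calls stand at 51.5%, 69.7% and 57.6% at 6, 9 and 12 hours, beside 23.3%, 32.0% and 22.2% of all probe sets.

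The biopsies also hold RNA of other liver and blood cells, and in such bulk samples fewer cells of a type and less RNA per cell cannot be told apart. Of 7 measured neutrophil markers, 5 were higher at 9 hours (S100A8 by 6.19), and the mean log2 level of the list ranged over the cows from 3.98 to 4.49 at -22 hours and from 6.70 to 8.38 at 9 hours. MPO, 1 of these 5, rose by only 0.06 from 2.48, near the bottom of the intensity range. ELANE and LTF were the neutrophil markers not called. Of 8 hepatocyte markers 6 were lower at 9 hours, with list means of 13.0 to 13.6. Macrophage markers were lower in 4 of 8, endothelial markers in 5 of 8 (1 higher) and T and NK cell markers in 2 of 10. The 1 endothelial marker called higher, KDR, changed by 0.07 near the bottom of the intensity range. No red cell marker was past the filter on dim probe sets, though HBA was called higher by 0.06. The marker lists were not tested against the shares over all probe sets. The part of these marker changes in the members' changes was not tested.

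**Figure D2:**
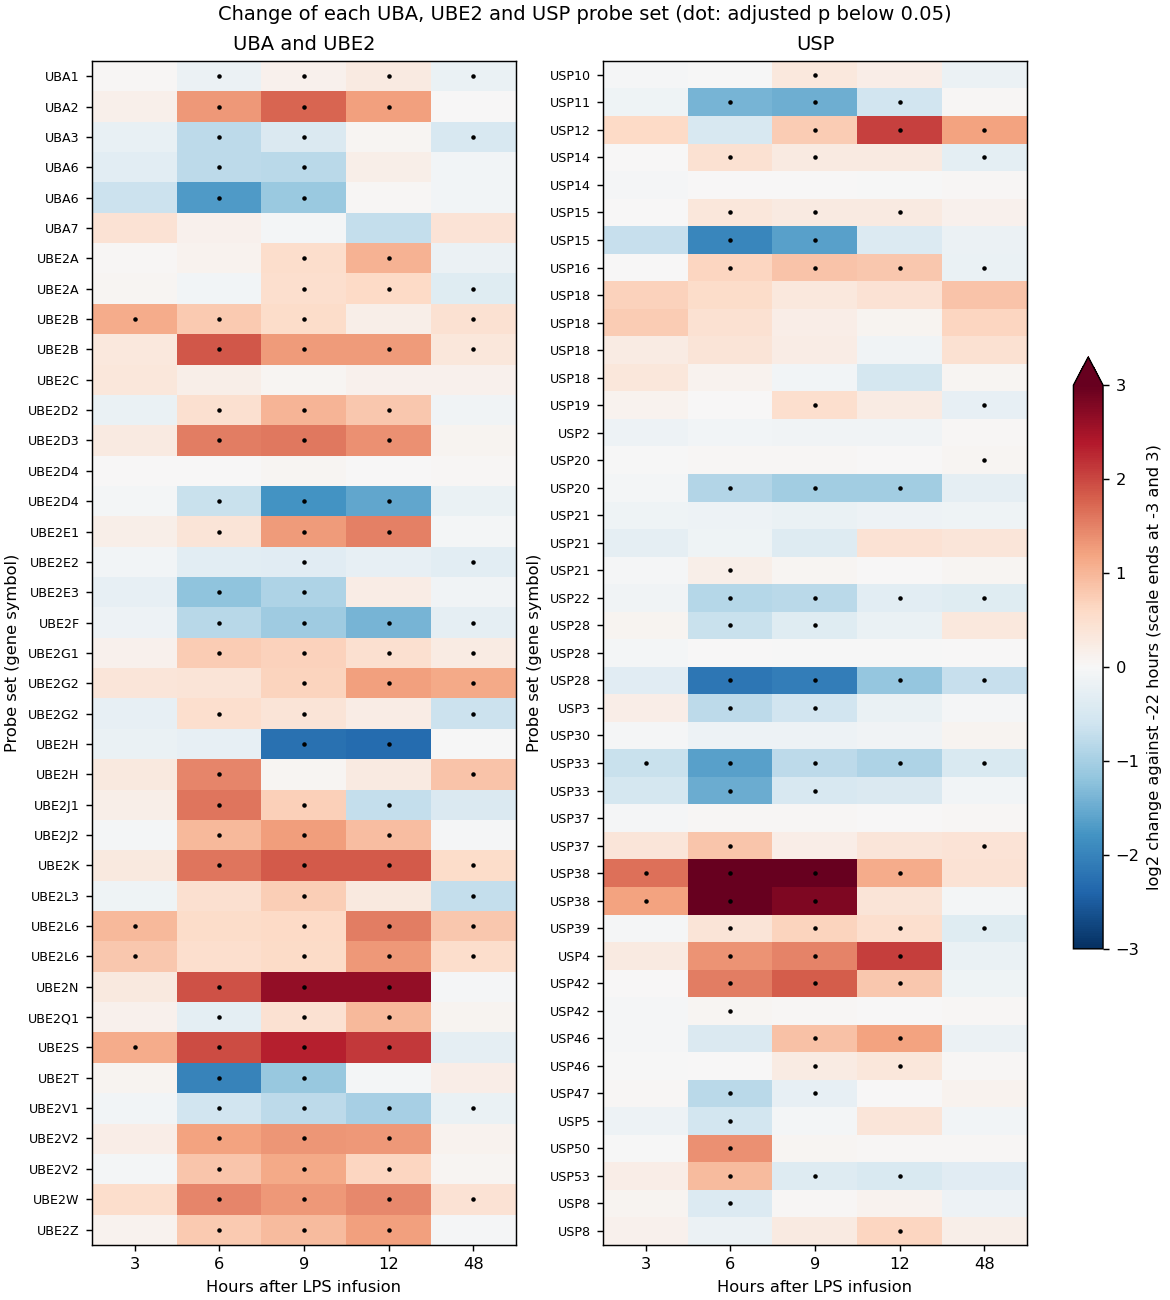
Each row is a probe set, named by its gene, and each column an hour after LPS. Colour gives the log2 change against -22 hours on a scale that ends at -3 and 3, and a dot marks an adjusted p below 0.05. USP38 passes the end of the scale at 6 hours with 4.02 and 3.09, and most rows are pale again at 48 hours.

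Among the activating enzymes, UBA2, the catalytic subunit of the SUMO E1, rose in every cow. It lay between 8.69 and 8.99 (median 8.94) in the 8 cows at -22 hours and between 10.4 and 10.8 (median 10.7) at 9 hours, with no overlap. The change was 1.30 (SE 0.08) at 6 hours, 1.73 (higher in 8 of 8 cows, SE 0.07, adjusted p = 2.78e-20) at 9 hours and 1.22 (SE 0.08) at 12 hours, and 0.01 (SE 0.07) at 48 hours. Its partner in the SUMO E1, SAE1, which is no member by name, was higher by 1.16, 1.57 and 1.52 at 6, 9 and 12 hours. SUMO3, a SUMO protein, changed by -1.31 at 9 hours.

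UBA3, the catalytic subunit of the NEDD8 E1, went the other way. At 6 hours cows 1, 3, 7 and 8 had 7.87, 7.78, 7.66 and 7.78, all below the range of 8.33 to 8.79 at -22 hours. The changes were -0.79 (SE 0.12) at 6 hours, -0.45 (SE 0.10) at 9 hours and -0.48 (SE 0.10) at 48 hours, while at 12 hours it was 0.06 (SE 0.12) and not called. NAE1, the other subunit of that E1, changed by -1.48 at 6 hours, -0.39 at 9 hours and -0.52 at 48 hours, with 0.04 at 12 hours.

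Both E1 enzymes of ubiquitin itself were measured. UBA1, which charges most E2 enzymes, stayed within -0.20 to 0.27 of its -22 hour level. It was called lower at 6 and 48 hours but higher at 9 and 12 hours, and each of those calls ended when some cow was left out. For the 12 hour change that cow was cow 8 (0.18 without it), and for the 48 hour change cow 1 (-0.16 without it). With cow as a block the 6 and 9 hour changes (-0.17 and 0.14) were not called, and with median centring the 48 hour change (-0.07) was not. UBA6, which also activates the modifier FAT10, fell at 6 and 9 hours on both probe sets. The brighter of its 2 probe sets had 4.25, 4.47, 5.09 and 5.16 at 6 hours against 5.92 to 7.05 at -22 hours, a change of -1.71 (SE 0.21, adjusted p = 5.27e-08). The dimmer changed by -0.79 (SE 0.27), and its 6 hour call was lost without cow 1, 3 or 8. At 12 hours UBA6 was not called on either probe set (0.03 and 0.18).

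Among the conjugating enzymes, UBE2N had the largest rise. UBE2N builds the signalling chains needed by receptors of endotoxin and cytokines, and works only with a partner, UBE2V1 or UBE2V2, that has no catalytic site. UBE2N ranged from 6.37 to 7.13 (median 6.64) at -22 hours. It had 8.81, 8.61, 8.46 and 8.70 at 6 hours in cows 1, 3, 7 and 8, then 8.95 to 9.68 (median 9.37) at 9 hours and 9.29, 9.99, 8.53 and 9.61 at 12 hours. Every array from 6 to 12 hours was above every -22 hour array. The change was 2.63 (SE 0.15, adjusted p = 3.21e-16) at 9 hours, a 6.18-fold rise, and -0.04 (SE 0.15) at 48 hours.

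The partners of UBE2N moved in opposite directions. UBE2V2 rose on both of its probe sets, by 1.20, 1.31 and 1.29 on the first and by 0.83, 1.13 and 0.64 on the second at 6, 9 and 12 hours. UBE2V1 fell, by 0.56 (SE 0.09) at 6 hours, 0.78 (SE 0.07) at 9 hours and 1.00 (SE 0.09) at 12 hours. At 12 hours it had 9.09, 8.99, 9.01 and 9.04, below its range of 9.77 to 10.2 at -22 hours. A further 48 hour call of UBE2V1 (-0.21) was lost without cow 1, 2, 3 or 4 and with median centring.

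**Figure D3:**
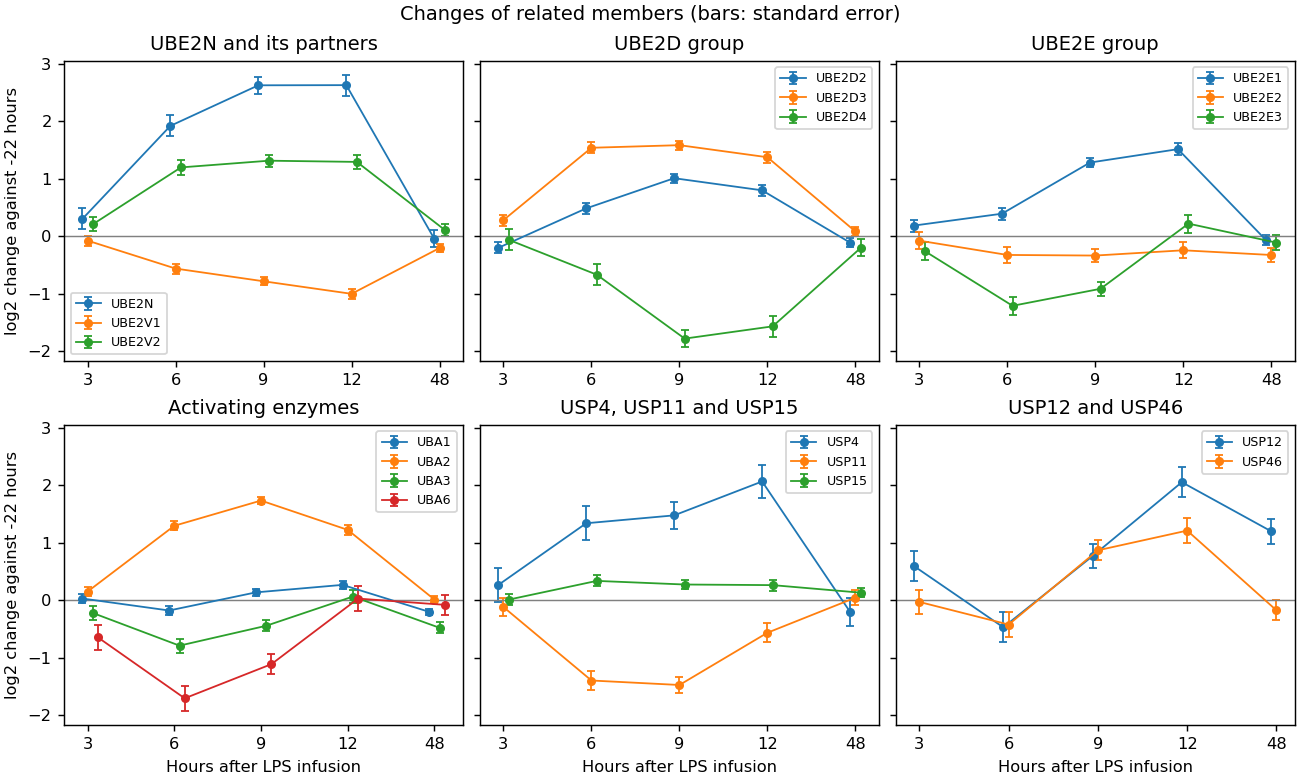
Log2 change against -22 hours (vertical axis) by hour after LPS (horizontal axis) for related members, with bars of 1 standard error, for 1 probe set per gene. UBE2N and UBE2V2 rise while UBE2V1 falls. UBE2D2 and UBE2D3 rise while UBE2D4 falls. UBE2E1 rises while UBE2E3 is lower at 6 and 9 hours, and UBA2 rises while UBA3 and UBA6 fall at 6 and 9 hours.

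The UBE2D group, E2 enzymes that serve many ligases, also divided. UBE2D3 was between 11.8 and 12.5 at -22 hours and between 13.8 and 14.1 at 9 hours. Its change was 1.54, 1.59 (SE 0.08, adjusted p = 1.61e-17) and 1.38 at 6, 9 and 12 hours. UBE2D2 followed with 0.48, 1.01 and 0.80. UBE2D4 changed by -0.67, -1.78 (SE 0.15) and -1.57 at those hours, from 7.89 to 8.47 at -22 hours to 6.02 to 6.95 at 9 hours without overlap. Its other probe set was not past the filter on dim probe sets and was called at no hour (0.05 at 9 hours).

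In the UBE2E group, UBE2E1 rose by 0.39, 1.28 and 1.52 (SE 0.10) at 6, 9 and 12 hours. UBE2E3 fell by 1.21 (SE 0.15) at 6 hours and 0.91 (SE 0.13) at 9 hours. At 12 hours it had 10.2, 9.60, 9.41 and 10.4 against 9.49 to 9.86 at -22 hours, a change of 0.22 that was not called. The step of UBE2E3 from 9 to 12 hours was itself a rise of 1.13 (SE 0.15, Bonferroni-adjusted p = 0.000674). UBE2E2, not past the filter on dim probe sets, was called lower at 9 hours (-0.34), a call lost without cow 1 or 3. Its 48 hour call (-0.33) was lost without cow 1, 2, 3, 4 or 6 and with median centring.

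UBE2S rose early and stayed high to 12 hours. UBE2S lengthens the chains that the anaphase-promoting complex starts in dividing cells. It had 8.11, 7.89, 8.12 and 8.03 at 3 hours, when the range at -22 hours was 6.29 to 8.07 (median 6.81, cow 1 highest), so the groups overlapped through cow 1. The change was 1.11 (SE 0.24) at 3 hours, 1.95 at 6 hours, 2.33 (SE 0.20, adjusted p = 4.29e-12) at 9 hours and 2.13 at 12 hours. UBE2C, which starts those chains, was near the bottom of the intensity range (2.08 to 2.17 at -22 hours) and was called at no hour, though its 3 hour change was with cow as a block (0.36) and its 48 hour change with median centring (0.26). Of 5 measured proliferation markers none was called at 9 hours, and only 1 was past the filter. That marker, PCNA, was lower at 6 hours (-0.43), higher at 12 hours (0.47) and lower at 48 hours (-0.40).

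UBE2T fell most among the E2 enzymes at 6 hours. UBE2T attaches ubiquitin in the Fanconi anemia pathway of DNA repair. Its 6 hour values were 5.51, 4.74, 5.53 and 5.56 against 6.88 to 7.64 at -22 hours, a change of -2.00 (SE 0.20, adjusted p = 4.01e-10). It changed by -1.15 (SE 0.16) at 9 hours and by -0.07 (SE 0.20) at 12 hours, where its 4 values ran from 6.57 to 7.72.

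UBE2H, an E2 that works with a large multi-subunit ligase, fell between 6 and 9 hours. The brighter probe set had 8.92, 9.38, 8.98 and 9.00 at 6 hours, beside 9.16 to 9.77 at -22 hours, and the change was not called. At 9 hours it lay between 6.63 and 7.70 and at 12 hours it had 7.08, 6.74, 7.17 and 7.01. The changes were -2.23 (SE 0.11, adjusted p = 7.67e-18) and -2.30 (SE 0.13), the latter a 4.94-fold fall, and -0.02 at 48 hours. The step from 6 to 9 hours was -1.99 (Bonferroni-adjusted p = 1.91e-11). The dimmer probe set of UBE2H, between 3.86 and 4.30 at -22 hours, was instead higher at 6 hours by 1.47 (SE 0.18) and at 48 hours by 0.86, and 0.06 at 9 hours. The annotation does not say which transcripts the 2 probe sets read.

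**Figure D4:**
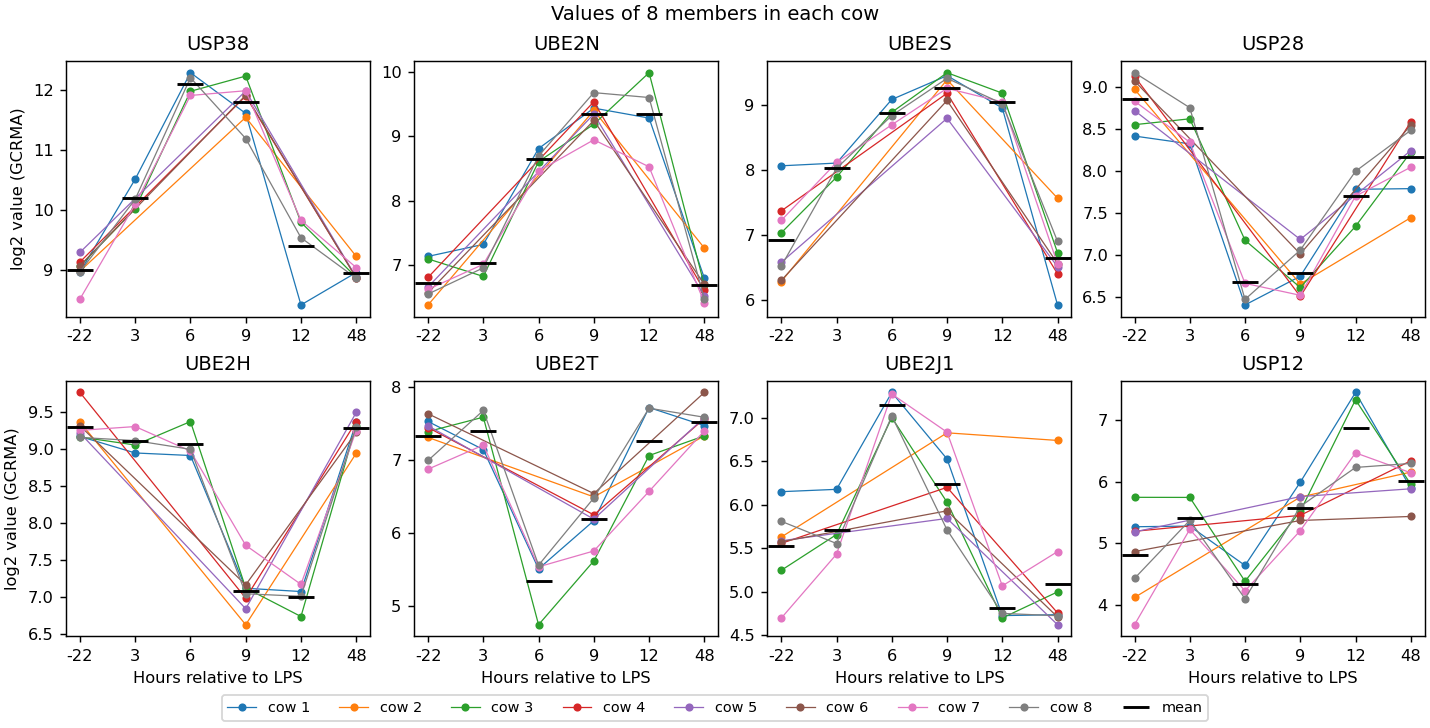
Log2 value (vertical axis) against hour relative to LPS (horizontal axis) for 8 members, with 1 colour per cow and a black bar for the mean. Lines join the arrays of a cow and cross the hours at which 4 of the 8 cows were not sampled. USP38, UBE2N and UBE2S rise, USP28, UBE2H and UBE2T fall, UBE2J1 peaks at 6 hours, and USP12 is highest at 12 hours.

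UBE2J1, UBE2J2, UBE2G1 and UBE2G2 are known for protein quality control at the endoplasmic reticulum. UBE2J2, anchored in that membrane, rose by 0.96, 1.25 and 0.92 at 6, 9 and 12 hours. UBE2G1 rose by 0.75, 0.69 and 0.47 and was still higher by 0.24 at 48 hours. UBE2J1, also membrane-anchored, rose by 1.62 (SE 0.28) at 6 hours, where it had 7.29, 7.00, 7.27 and 7.02 against 4.70 to 6.15 before LPS. It was 0.71 at 9 hours (lost without cow 7) and -0.72 at 12 hours, a call that ended when any of 6 cows (all but 2 and 7) was left out. UBE2G2, the soluble E2 of this system, had 2 probe sets, both higher at 9 hours (0.67 and 0.38). The first was also higher at 12 hours (1.23) and the second at 6 hours (0.50, lost without cow 8). At 48 hours they were called in opposite directions. The first was higher by 1.13 (SE 0.14, higher in 8 of 8 cows) and the second changed by -0.65 (SE 0.13, lower in 7 of 8 cows). SYVN1, a ligase of this system, is no member by name and was higher by 2.70 at 9 hours.

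Further E2 enzymes rose over the middle hours. UBE2K, which makes chains that mark proteins for the proteasome, changed by 1.61, 1.83 (SE 0.13, higher in 8 of 8 cows) and 1.83, and was still 0.56 higher at 48 hours. UBE2B, a RAD6 enzyme that acts on histones and in DNA damage tolerance, had 12.4, 12.5, 12.6 and 12.3 at 6 hours on its brighter probe set, against 10.3 to 10.8 before LPS, a rise of 1.85 (SE 0.12). The dimmer UBE2B probe set was already higher at 3 hours, with 7.00, 6.99, 7.18 and 6.81 against 5.58 to 6.17, a rise of 1.11 (SE 0.16). On the brighter one the 3 hour change was 0.32 and was not called. UBE2A, its paralog, was not called before 9 hours and rose by 0.52 and 0.49 at 9 hours and by 1.04 and 0.60 at 12 hours on its 2 probe sets.

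UBE2W, which can attach ubiquitin to the start of a protein chain, rose by 1.48, 1.30 and 1.45 at 6, 9 and 12 hours. UBE2Z, an E2 charged by UBA6, rose by 0.77, 0.96 and 1.24. UBE2Q1 changed by -0.29 at 6 hours (lost without cow 3, 6, 7 or 8), 0.45 at 9 hours and 0.98 at 12 hours. UBE2L3, which serves ligases of the HECT and RBR classes, was higher by 0.74 at 9 hours and lower at 48 hours (-0.71, SE 0.18, lower in 8 of 8 cows). UBE2F, an E2 of NEDD8, fell as UBA3 did but had not returned by 12 hours: the changes were -0.83, -1.06 and -1.38 (SE 0.10), with 8.47, 7.92, 8.06 and 8.45 at 12 hours against 9.29 to 9.78. CDC34, a cullin-linked E2 outside the naming rule, changed by -1.45, -2.13 and -1.37.

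Among the proteases, USP38 had the largest change of any member. USP38 is reported to restrain the kinase TBK1 in antiviral signalling. Its brighter probe set lay between 8.52 and 9.30 (median 9.03) at -22 hours. It had 10.5, 10.0, 10.1 and 10.2 at 3 hours, and 12.3, 12.0, 11.9 and 12.2 at 6 hours, in cows 1, 3, 7 and 8. At 9 hours it lay between 11.2 and 12.2, and at 12 hours it had 8.42, 9.80, 9.83 and 9.54, with cow 1 below its own -22 hour value. Arrays at 3, 6 and 9 hours did not overlap with those before LPS, while those at 12 hours did.

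The change of USP38 was 1.20 (SE 0.18) at 3 hours, 3.09 (SE 0.18, adjusted p = 5.31e-15) at 6 hours and 2.79 (SE 0.15) at 9 hours on that probe set. On the other it was 1.65, 4.02 (SE 0.21, adjusted p = 5.22e-16) and 3.48, so the 6 hour folds were 8.52 and 16.2. Between 9 and 12 hours USP38 dropped by 2.40 and 2.36 on the 2 probe sets (Bonferroni-adjusted p = 8.32e-10 and 7.07e-08). At 12 hours it was called on 1 of them (1.12, against 0.39), and at 48 hours on neither, though 1 of them (0.43) was called with cow as a random block and, at 0.56, with median centring.

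USP42, USP4, USP12 and USP46 also rose. USP42, known for acting on p53, rose by 1.54, 1.82 (SE 0.10, higher in 8 of 8 cows) and 0.82 at 6, 9 and 12 hours on its brighter probe set. USP4 rose by 1.34, 1.48 and 2.07 (SE 0.29), with 7.21, 7.60, 7.07 and 7.39 at 12 hours against 4.21 to 6.53 at -22 hours. USP12 and USP46 are close paralogs that share the activator WDR48. USP12 was -0.47 at 6 hours (not called), 0.77 at 9 hours, 2.05 (SE 0.26) at 12 hours and 1.20 (SE 0.21, higher in 8 of 8 cows) at 48 hours. USP46, on the probe set past the filter on dim probe sets, was -0.42 at 6 hours (not called, though with cow as a block, at -0.44, it was). There it was 0.87 at 9 hours, 1.21 (SE 0.21) at 12 hours and -0.18 at 48 hours. The other USP46 probe set rose less, by 0.24 at 9 hours (lost without cow 1, 6 or 8) and 0.33 at 12 hours. That 12 hour call was lost without cow 1 and with cow as a fixed block.

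USP28 had the largest fall among the proteases. USP28 is known for stabilising MYC. On its brightest probe set it lay between 8.41 and 9.16 at -22 hours and had 6.41, 7.18, 6.66 and 6.47 at 6 hours, a change of -2.17 (SE 0.19, adjusted p = 1.79e-11). The change was -2.06 at 9 hours, -1.15 at 12 hours and -0.69 (SE 0.15) at 48 hours. A second, dimmer USP28 probe set was not past the filter on dim probe sets. It was also lower at 6 hours (-0.68) and at 9 hours (-0.36, lost without cow 1, 3, 4, 6 or 8). At 48 hours it stood the other way, at 0.33 (higher in 7 of 8 cows), which was not called, but was with cow as a block and, at 0.46, with median centring. The third stayed at the bottom of the range.

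USP11 and USP15 are paralogs of USP4. USP11 changed by -1.40, -1.48 (SE 0.13, lower in 8 of 8 cows) and -0.57 at 6, 9 and 12 hours. The probe sets of USP15 were called in opposite directions at 6 and 9 hours. The brighter had 9.61, 9.75, 9.56 and 9.70 at 6 hours against 8.95 to 9.53 and was higher by 0.34 (SE 0.10). The dimmer had 4.91, 5.07, 5.26 and 5.28 against 6.14 to 7.63 and changed by -1.95 (SE 0.40). No direction for USP15 can be given from these 2 probe sets.

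USP33 was the only member called lower at 3 hours. USP33 and its paralog USP20 are known for acting on receptors that are taken into the cell. On its brighter probe set USP33 had 8.18, 8.57, 8.02 and 8.14 at 3 hours, overlapping the -22 hour range of 8.39 to 9.28 through cow 3, a change of -0.67 (SE 0.14, adjusted p = 0.00122). At 6 hours the brighter probe set had 7.39, 7.12, 7.10 and 7.47, a change of -1.63 (SE 0.14), and it was lower at 48 hours too (-0.46). The other probe set was lower at 6 hours (-1.50) and 9 hours (-0.47, lost without cow 1, 3, 4, 6 or 8), and was not called at 3, 12 or 48 hours (-0.53, -0.44 and -0.09). USP20 changed by -0.87, -1.04 and -1.03 at 6, 9 and 12 hours on the probe set past the filter.

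USP22, USP3 and USP16 are known for acting on histones. USP22, of the SAGA coactivator, was lower at 6, 9, 12 and 48 hours (-0.86, -0.80, -0.32 and -0.36), the 12 hour call being lost without cow 1 or 7. USP3, not past the filter on dim probe sets, was -0.78 and -0.58 at 6 and 9 hours, the latter lost without cow 1 or 3. USP16 was higher by 0.63, 0.86 and 0.82 at 6, 9 and 12 hours, and its 48 hour call (-0.19) was lost without cow 1, 3, 5 or 8 and with median centring. USP39, a spliceosome protein without protease activity, was higher by 0.38, 0.68 and 0.49 at those hours and -0.36 at 48 hours. USP47, which acts in DNA base repair, was -0.81 at 6 hours and -0.24 at 9 hours.

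The remaining proteases follow. USP14, bound to the proteasome, was higher by 0.45 at 6 hours, while its calls at 9 hours (0.26) and 48 hours (-0.29) were each lost without any of several cows. USP5, which takes apart free ubiquitin chains, was -0.56 at 6 hours (lost without cow 7). USP8, which sorts receptors in endosomes, was -0.41 at 6 hours on 1 probe set and 0.63 at 12 hours on the other. USP10 was higher by 0.31 and USP19 by 0.51 at 9 hours, and a 48 hour call of USP19 (-0.25) was lost without cow 1, 4, 5 or 6 and with median centring. USP53 was higher by 0.94 at 6 hours and dropped by 1.33 from 6 to 9 hours. It was then called lower at 9 hours (-0.38, lost without cow 4 or 8) and 12 hours (-0.46, lost without cow 1, 3, 4 or 8). USP37 was higher by 0.84 at 6 hours. USP21 was called on 1 of 3 probe sets, a dim one (0.17 at 6 hours, lost without cow 8). USP50, not past the filter on dim probe sets, was at 2.44 to 2.53 on all -22 hour arrays. It had 4.67, 4.49, 3.74 and 2.59 at 6 hours (1.37, SE 0.18), with cow 8 barely above the earlier range. That SE pools the spread of all hours and is too small for the wide spread at 6 hours. Values were back at 2.52 to 2.65 at 9 hours.

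Of all 82 members, 68 were called at 1 or more hours and 14 at none, 7 of the latter not past the filter on dim probe sets (67 of 82 were). USP2, USP30, UBE2C, UBA7 and all 4 probe sets of USP18 were among the 14. Over the whole array 74.4% of probe sets were called at 1 or more hours. Members called higher at 6, 9 and 12 hours alike numbered 20, beside 11.9% of all probe sets, and those called lower throughout those hours numbered 8, beside 14.2%. In all, 11 members were called higher at one hour and lower at another (8.68% of all probe sets were), and 2 of them, USP16 and USP39, are also among the 20. Each direction had a call that held without any 1 cow in 4 of the 11, UBE2A, UBE2G2, UBE2L3 and USP39. In the other 7 (UBA1, UBE2J1, UBE2Q1, USP14, USP16, USP19 and USP53) every call of some direction was lost without some cow. Of the 67 members called at 6, 9 or 12 hours, 26 were also called at 48 hours, beside 33.9% of all probe sets so called.

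The stricter comparison of neighbouring hours (Bonferroni-adjusted p below 0.01, called differentially expressed or DE) held 36 members of 31 genes, beside 22.2% of all probe sets: 22 of UBE2, 12 of USP and 2 of UBA. From -22 to 3 hours 3 members rose (both USP38 probe sets and the dimmer UBE2B) and none fell, beside 0.899% and 0.191% of all probe sets. From 3 to 6 hours 13 rose, among them UBE2N by 1.62 and USP42 by 1.53, and 4 fell, UBE2T, USP11, USP28 and USP47 (background 4.0% and 4.16%). From 6 to 9 hours 2 rose (UBE2E1 and UBE2Q1) and 4 fell, where 2.49% and 2.35% of all probe sets did. From 9 to 12 hours 1 rose (UBE2E3) and 3 fell (background 1.5% and 1.28%). From 12 to 48 hours 4 rose, UBE2D4, UBE2F, UBE2H and UBE2V1, and 20 fell, against 6.86% and 9.2% of all probe sets.

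The members that attach or remove ISG15, an interferon-induced modifier, varied widely between cows. UBA7 is its E1, UBE2L6 its E2 and USP18 the protease that removes it. ISG15 itself was 13.4 in cow 3 at -22 hours, where the other 7 cows lay between 6.88 and 8.68, and 13.6 in cow 6 at 9 hours. USP18 on its brightest probe set had 10.8 in cow 3 at -22 hours against 7.62 to 8.70 in the others, and 10.1 in cow 6 at 9 hours. UBA7 had 9.84 in cow 3 at -22 hours, the others lying between 7.32 and 8.28, and 9.42 in cow 6 at 9 hours. These 2 arrays were thus the highest of their hour for all 3 genes.

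Neither UBA7 nor any USP18 probe set was called at any hour. At 9 hours UBA7 was -0.06 (SE 0.32), and the USP18 probe sets ran from -0.07 to 0.32 with SE of 0.33 to 0.50. These values turned on single cows: without cow 3 they were 0.07 for UBA7 and 0.21 to 0.68 for USP18, and without cow 6 they were -0.25 and -0.33 to 0.19, none of them called. Without cow 3, 1 USP18 probe set became called at 48 hours (1.18, SE 0.39). UBE2L6 was higher at 12 hours, with 10.7, 10.7, 10.5 and 11.4 against 8.53 to 10.5 on the first of its 2 probe sets. That change was 1.55 (SE 0.28, adjusted p = 2.54e-05), and on the second 1.30. The UBE2L6 calls at 3 hours (0.97 and 0.82) and at 9 hours (0.60 and 0.57) each ended when any of several cows was left out, and with cow as a block the 3 hour changes (0.71 and 0.59) were not called. At 48 hours the changes were 0.82 and 0.52, the latter lost without cow 2, 3, 4, 7 or 8. ISG15 rose by 2.40 (SE 0.76, higher in 7 of 8 cows, cow 3 being the exception) at 9 hours.

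**Figure D5:**
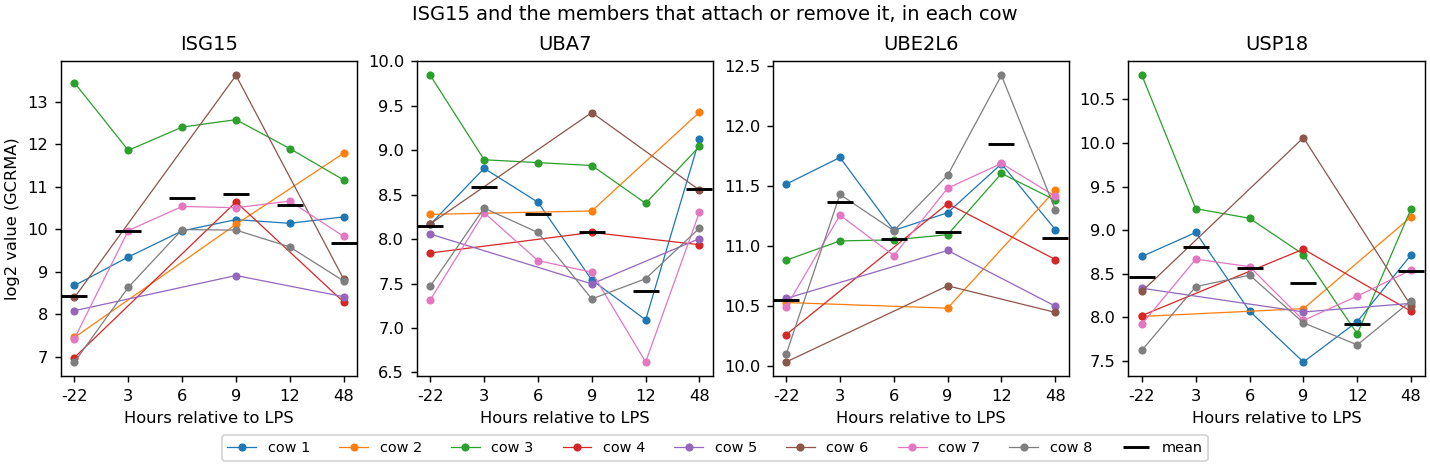
Log2 value (vertical axis) against hour relative to LPS (horizontal axis) for ISG15, UBA7, UBE2L6 and USP18, with 1 colour per cow and a black bar for the mean, lines crossing the hours at which a cow was not sampled. Cow 3 stands at the top at -22 hours and cow 6 at 9 hours for ISG15, UBA7 and USP18, but not for UBE2L6.

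Across the 8 cows, USP18 followed ISG15 at -22 hours on its brightest probe set, the only USP18 probe set compared here. Pearson's r was 0.992 (exact permutation p = 0.000372, adjusted over 9 relations 0.00313) and Spearman's rho 0.905 (exact permutation p = 0.00456, adjusted 0.0137). Without cows 1 and 3, the farthest from the ISG15 median, r was 0.872 (exact permutation p = 0.0375). At 48 hours r was 0.977 (exact permutation p = 0.000694, adjusted 0.00313), rho was 0.905 (exact permutation p = 0.00456, adjusted 0.0137), and r was 0.978 without cows 2 and 3. At 9 hours r was 0.832 (exact permutation p = 0.0131, adjusted 0.0197) and rho 0.667 (exact permutation p = 0.0831, adjusted 0.107). Without cows 3 and 6, r was 0.228, so there the relation was not shown apart from those cows.

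UBA7 gave r = 0.935, 0.903 and 0.922 at -22, 9 and 48 hours, with exact permutation p of 0.00898, 0.00375 and 0.00198 (adjusted 0.0162, 0.00843 and 0.00595). Its rho was 0.762, 0.833 and 0.952 (exact permutation p of 0.0368, 0.0154 and 0.00114, adjusted 0.0662, 0.0346 and 0.0103), so the rho at -22 hours did not pass after adjustment. Without the 2 farthest cows r was 0.571, 0.390 and 0.826. At -22 and 9 hours the relation was thus not shown apart from those cows. Leaving them out keeps 6 cows and narrows the spread of ISG15, so a lower r does not show that the relation is absent in the others. For UBE2L6 r was 0.437, -0.289 and 0.712, with exact permutation p of 0.233, 0.499 and 0.0550 (adjusted 0.263, 0.499 and 0.0707), and rho was 0.619, -0.119 and 0.690 (exact permutation p of 0.115, 0.793 and 0.0694, adjusted 0.129, 0.793 and 0.104). UBE2L6 was read on the second of its 2 probe sets, and no relation of it with ISG15 passed the threshold.

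Around the members, genes of the same pathway that the naming rule leaves out moved in both directions at 9 hours, when 32.0% of all probe sets were called higher and 22.6% lower (40.0% and 38.3% of those past the filter on dim probe sets). The lists were not tested against these shares. Of 18 other deubiquitinases 10 were higher and 4 lower, among them CYLD, which removes signalling chains downstream of cytokine receptors (1.51), OTUD4 (1.30), OTULIN, which removes linear chains (1.22), and BRCC3 (-1.23). Of 31 RING and U-box ligases 13 were higher and 12 lower, with BIRC3, a ligase of the TNF receptor complex, at 3.80 and MARCHF6 at -1.59. Of 21 HECT and RBR ligases 9 were higher and 4 lower, with RNF19B at 2.26 and ITCH at -2.22. Cullin ligase parts were higher in 8 of 16 and lower in 5, with ELOC at 1.84 and FBXO9 at -2.77.

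Of 11 ubiquitin-like modifiers 4 were higher and 6 lower at 9 hours. UFM1, a modifier used at the endoplasmic reticulum, was the largest at 3.02 (SE 0.22, higher in 8 of 8 cows), and 5 of the 6 that were lower belong to the autophagy modifiers GABARAP and MAP1LC3, with changes from -0.88 to -0.28. Of 7 measured partners of USP proteins 4 were higher and none was lower, with G3BP1, the partner of USP10, at 2.06 and STAM at 1.89. Of 5 other conjugating enzymes 1 was higher and 2 were lower, of 3 other activating enzymes 2 were higher and 1 lower, and neither of 2 SUMO proteases was called. In the ISG15 list of 8 genes, 3 of which are members, 3 were higher and 2 lower.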

How the data were processed

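Affymetrix Bovine Genome Array values of 36 liver biopsies were used as deposited. Per the labels, the authors processed the scans with GCRMA, which corrects background, normalises between arrays and gives log2 values per probe set. GCRMA leaves dim probe sets near a floor, so their small spread can make tiny changes pass a test. Genes were named from the platform annotation: 13318 probe sets carried 1 symbol, 86 several and 10724 none, and 81 of the 82 members matched a current RefSeq gene ID. USP6NL was not found under a single symbol.

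Cow identity came from the labels. limma 3.58.1 in R 4.3.3 fitted 1 mean per hour to all 36 arrays and 24128 probe sets, without a cow term. The study's methods name limma and the comparison of neighbouring hours. Each hour was compared with -22 hours (Benjamini-Hochberg below 0.05) and neighbouring hours with each other (Bonferroni below 0.01). Arrays of the same cow are paired: deviations from the hour means correlated between 0.116 and 0.505 within a cow and averaged about -0.04 between cows, so cow was also fitted as a block. Correlations used scipy 1.17.1. The fit was checked on simulated data. The number of arrays limits the precision.

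Members, pathway lists and marker lists were chosen with earlier results of these data known. Members named with full values were all UBA members, those of ISG15, the 3 largest rises and falls per hour in UBE2 and USP among calls of 1 direction in every cow, and genes with probe sets called in opposite directions. From each pathway list up to 4 genes with the largest 9 hour change came under that rule. Other members and list genes were named to account for the families, after their values were seen. Alternatives left out each cow, the cows without all hours or arrays that stood apart, weighted arrays, centred arrays, filtered dim probe sets, dropped control probe sets, used a trended robust prior, the brightest probe set per gene, current symbols or Bonferroni.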

Additional observations from a re-analysis of the deposited data

Results flagged for a closer look

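The 39 named probe sets, not all 82 members, were searched at each hour for a cow that stood apart. They were chosen as stated above and include those of ISG15. In 22 of 234 groups of 4 or 8 cows (9.40%) the highest or lowest cow lay apart from the others by Dixon's criterion. Chance gives about 1 in 20 per group, but the groups share arrays and some share a gene. They are thus not independent, and an excess over chance was not tested. Cow 3 accounted for 8 of them, cow 2 for 5 and cow 7 for 3.

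Cow 3 at -22 hours stood high for UBA7 (9.84) and for 3 USP18 probe sets (8.96, 10.2 and 10.8), and at 3 hours for USP18 (6.92). It also stood apart for UBE2T at 6 hours (4.74, low), for the brighter USP15 probe set at 9 hours (9.94, high) and for USP46 at 9 hours (6.37, low). Cow 2 at 48 hours was apart for UBE2N (7.26, high), UBE2K (10.2, high), UBE2E3 (8.94, low) and the dimmer USP15 probe set (4.73, low), and at 9 hours for the dimmer UBE2H probe set (3.56, low). Its 48 hour array was also the one nearest to the 9 hour profile.

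Cow 7 was apart for UBA6 at 6 hours (4.62, high), UBE2G2 at 9 hours (7.44, low) and USP38 at -22 hours (8.52, low). Cow 1 was low for UBA2 at 6 hours (9.97) and for UBE2B at 48 hours (5.49). Cow 6 was high for UBA1 at 9 hours (10.97) and for UBE2T at 48 hours (7.93). Cow 4 was high for UBE2H at -22 hours (9.77), and cow 8 for UBE2L6 at 12 hours (12.4).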

How the results depend on the processing

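With cow as a fixed replicate block the members called at 3, 6, 9, 12 and 48 hours numbered 7, 52, 59, 43 and 29, in place of 7, 53, 59, 42 and 27, and a random block gave 9, 53, 62, 43 and 31. Of the named probe sets none changed its call at its hour of largest change under either block, and no count moved by over 1.5 times. At other hours the fixed block ended calls of UBA1, UBE2L6 and dim probe sets of USP42 and USP46, and gained others. Bonferroni at 0.01 left 3, 30, 30, 24 and 1 members. At 3 hours array weights gave 11 and the brightest probe set per gene 4. With only the 4 cows that have all hours, 5 were called at 48 hours and 23 were DE between neighbouring hours in place of 36. With Benjamini-Hochberg below 0.01 in place of Bonferroni 58 were DE. No share over all probe sets under the same setting is set beside these counts, so they do not compare members with the array. Leaving out each cow gave 5 to 9 at 3 hours, 50 to 53 at 6 hours, 51 to 58 at 9 hours, 38 to 42 at 12 hours and 18 to 33 at 48 hours, lowest at 48 hours without cow 1. Calls that held without any 1 cow numbered 5 of 7, 46 of 53, 48 of 59, 36 of 42 and 16 of 27. Of 780 alternative values for the 39 named probe sets at their largest change, 769 kept direction and call, 10 lost the call (9 under Bonferroni, and UBA1 without cow 8) and 1 gained it. Most of these probe sets were named for large calls of 1 direction in every cow, so such stability was favoured by the choice. UBA7 and the USP18 probe sets, called at no hour in the main fit, are counted among them. The causes were not tested.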
